A study of Mus musculus with 6 samples.

Results

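Srl, Pam16 and Gm15879 lie near each other on mouse chromosome 16 and were selected on their TPM values, which were lower in cochleae of Plscr5 knockout mice than in those of wild-type mice. With them are described 7 genes listed for their position: Tfap4, Glis2, Coro7, Vasn, Dnaja3, Nmral1 and Hmox2. Together these are 10 of the 55769 features in the deposited tables, and all 10 passed the filter of at least 1 TPM in at least 3 libraries, which left 17097 features to test. TPM is a transcript abundance corrected for length and scaled to a total of 1000000 in each library. Because the genotype contrast chose Srl, Pam16 and Gm15879, their difference is described and not tested, whereas the 7 neighbours were tested. The choice names no threshold. The libraries were made from total RNA of whole cochleae on postnatal day 3, with 3 from Plscr5-/- mice and 3 from wild-type mice. The labels give no strain, no description of the knockout allele and no number of animals or cochleae in a library, so the spread between libraries may be partly technical. Libraries were grouped by their genotype field, although the text on RNA extraction mentions Pou4f3(Δ/+) mice.

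Srl encodes sarcalumenin, a calcium-binding glycoprotein of the lumen of the sarcoplasmic reticulum, the calcium store of striated muscle. Pam16, also called Magmas, is a subunit of the motor that pulls proteins with a targeting sequence through the inner mitochondrial membrane. In that motor the J-domain protein Dnajc19 stimulates the mitochondrial Hsp70, Hspa9, and Pam16 holds and restrains the J-domain protein. Gm15879 is annotated as an antisense noncoding gene. Along the chromosome in the GENCODE M21 annotation the order among these genes is Gm15879, Srl, Tfap4, Glis2, Pam16, Coro7, Vasn, Dnaja3, Nmral1 and Hmox2. Dnase1 and other tested genes lie between Gm15879 and Srl. All the listed neighbours lie on the other side of Srl, so none of them is next to Gm15879. Plscr5 itself is on chromosome 9.

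A search of the annotated transcripts showed that the spliced Pam16 transcript has a copy elsewhere that is identical over most of its length. Gm9803, on chromosome 10, carries the retrogene tag in GENCODE M21, and 534 consecutive bases of its 1-exon, 563 bp transcript are the same as in the 596 bp, 5-exon protein-coding transcript of Pam16. That stretch is 89.6% of the Pam16 transcript, and it holds the whole reading frame of 378 bases, which is identical in both genes. The first 150 bases of the reading frame, from base 1 of the start codon, are shown for both because a read from this stretch has no letter that tells the genes apart. The capitals mark 8 bases on each side of the Pam16 exon junction that follows base 88, and the retrogene carries the joined exons. The sequences are from the GENCODE M21 transcripts, on the coding strand.
Pam16: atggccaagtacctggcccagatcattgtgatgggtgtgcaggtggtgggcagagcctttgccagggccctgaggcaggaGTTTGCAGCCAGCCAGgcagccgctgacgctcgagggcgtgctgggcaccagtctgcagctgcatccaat
Gm9803: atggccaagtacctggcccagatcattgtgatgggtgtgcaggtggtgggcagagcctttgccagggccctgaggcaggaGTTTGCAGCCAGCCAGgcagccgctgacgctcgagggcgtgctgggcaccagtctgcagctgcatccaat

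Srl had the smallest relative spread of the genes picked as lower in both groups. Its level was 5.29, 6.22 and 6.73 TPM in knockout replicates 1, 2 and 3 and 13.72, 13.45 and 12.43 TPM in wild-type replicates 1, 2 and 3. All 3 knockout libraries were below all 3 wild-type libraries, a pattern that 4.74% of all tested features had. Nothing is read from that pattern here, since the gene was picked as lower in this contrast. The mean was 6.08 ± 0.73 TPM across knockout libraries against 13.2 ± 0.68 TPM across wild-type libraries (SD, n = 3 each), so that 46.1% of the wild-type level was measured in the knockout. The difference of knockout minus wild type in log2(TPM + 1) was -1.01 (adding 1 shrinks the fold of genes at low levels), rank 53 of 17097 counted from the most lowered feature. It stayed between -1.07 and -0.93 when any 1 library was left out. No other annotated gene matched an Srl transcript over 150 bp or more at 90% identity or more, and no exon of another gene overlapped an Srl exon.

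Pam16 was lower with a wider spread. Its level was 7.59, 8.81 and 13.96 TPM in knockout replicates 1 to 3 and 18.28, 26.68 and 16.30 TPM in wild-type replicates 1 to 3. The groups did not overlap, but knockout replicate 3 and wild-type replicate 3 lay close together. The mean was 10.1 ± 3.4 TPM across knockout libraries against 20.4 ± 5.5 TPM across wild-type libraries (SD, n = 3 each), a log2 difference of -0.96. Without any 1 library it lay between -1.19 and -0.76.

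The retrogene that shares most of the spliced Pam16 transcript went the other way. Gm9803 stood at 49.58, 44.36 and 44.70 TPM across knockout libraries against 40.46, 38.71 and 41.52 TPM across wild-type libraries. Every knockout value was above every wild-type value, a pattern that 4.60% of all tested features had. Added together, Pam16 and Gm9803 came to 57.17, 53.17 and 58.66 TPM across knockout libraries against 58.74, 65.39 and 57.82 TPM across wild-type libraries. These sums overlapped between the groups, with means of 56.3 ± 2.8 and 60.7 ± 4.1 TPM (SD, n = 3 each). The log2 difference of the sum was -0.10, against -0.96 for Pam16 alone. Pam16 made up 17.9 ± 5.4% of the sum in the knockout and 33.4 ± 6.6% in the wild type. The deposited values do not say how reads that match both genes were assigned, and its part in the Pam16 difference was not tested. The Pam16 value is therefore uncertain.

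**Figure D1:**
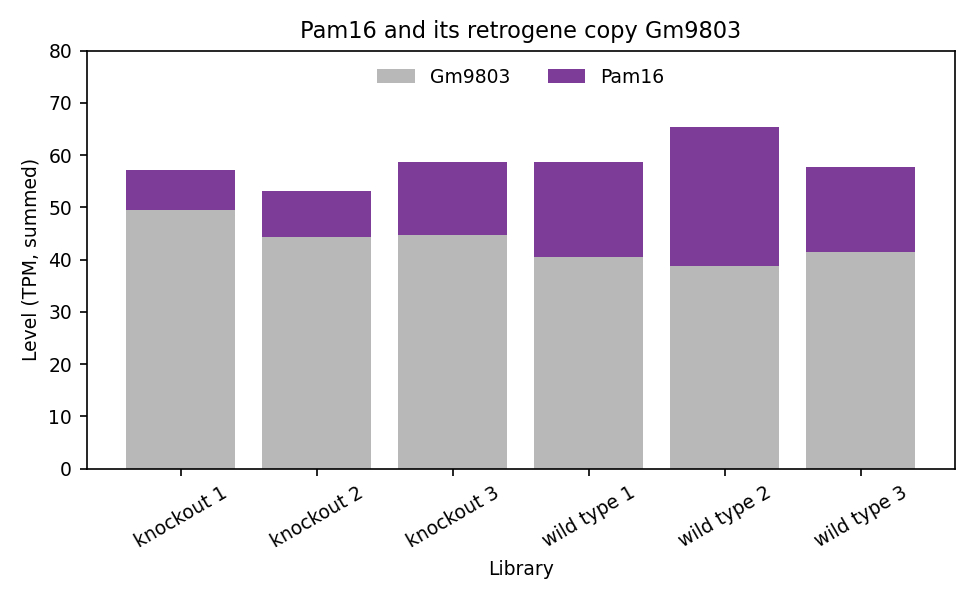
Level of Gm9803 (grey) and Pam16 (purple) in TPM, stacked for each of the 6 libraries. The whole bars overlap between genotypes, from 53.17 to 58.66 TPM across knockout libraries against 57.82 to 65.39 TPM across wild-type libraries, while the Pam16 segment is smaller in every knockout library.

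Pam16 also shares its place with Glis2. Its gene body lies almost wholly (99.2%) inside that of Glis2, on the other strand, and 455 bp of exon overlap, which is 18.7% of the Pam16 exons and 10.4% of the Glis2 exons in GENCODE M21. The labels do not say whether strand was used in counting, and without it reads from the overlapping exons cannot be told apart. Glis2, a zinc finger transcription factor of the Krüppel-like type, stood at 35.92, 31.54 and 29.26 TPM across knockout libraries against 27.08, 31.47 and 34.56 TPM across wild-type libraries, with the groups overlapping widely.

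Gm15879 had the widest relative spread of the genes picked as lower among knockout libraries, and Pam16 had it among wild-type libraries. Its level was 2.23, 5.38 and 6.25 TPM in knockout replicates 1 to 3 and 10.91, 8.46 and 9.63 TPM in wild-type replicates 1 to 3. Knockout replicate 1 was the lowest library by far, and the groups did not overlap. The means were 4.62 ± 2.1 and 9.67 ± 1.2 TPM (SD, n = 3 each), a log2 difference of -1.0 that became -0.64 without knockout replicate 1 and ran to -1.23 without knockout replicate 3. Of its exonic bases 49.3%, or 504 bp, lie on the other strand of exons of Dnase1, which encodes a secreted nuclease. Dnase1 stood at 17.60, 16.05 and 16.94 TPM across knockout libraries against 20.44, 15.19 and 17.80 TPM across wild-type libraries, a log2 difference of -0.07. Stretches of 150 bp or more of Gm15879 matched transcripts of 415 other annotated genes, Dnase1 among them, at 90% identity or more. Only the match to Dnase1 was 250 bp or longer. The Gm15879 value is therefore uncertain too.

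No difference was detected at the 7 listed neighbours. A limma adjusted p under 0.05 was reached by 2 of all tested features (0.0117%) and by 0 of the 7 neighbours. None of the 7 had an unadjusted limma p under 0.05, a level reached by 4.0% of all tested features, and at none were the groups apart, against 9.33% of all features. 4 neighbours had a positive and 3 a negative log2 difference, with a median of 0.01 beside -0.01 over all tested features. Their 95% confidence intervals lay between -0.49 and 0.45, and differences inside each interval are not excluded. The values of Srl, Pam16 and Gm15879 are no yardstick for them, since those genes were picked as lower in this same contrast.

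Immediately beside Srl, Tfap4, a basic helix-loop-helix leucine zipper transcription factor, stood at 8.55, 10.23 and 7.96 TPM across knockout libraries against 6.96, 9.36 and 11.88 TPM across wild-type libraries. The 3 knockout values lay inside the wild-type range. The log2 difference of Tfap4 was -0.05 (SE 0.19, 95% confidence interval -0.49 to 0.39, limma adjusted p = 0.997). Its interval was the widest of the 7. For Glis2, the gene around Pam16, the difference was 0.06 (SE 0.12, 95% confidence interval -0.22 to 0.33, limma adjusted p = 0.991).

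On the far side of Pam16 and on the same strand, Coro7, a coronin found at the Golgi apparatus, stood at 31.24, 28.96 and 29.75 TPM across knockout libraries against 22.60, 32.10 and 26.70 TPM across wild-type libraries. Its difference of 0.15 (SE 0.13, 95% confidence interval -0.14 to 0.45) was the highest of the 7 and did not pass (limma adjusted p = 0.989). Vasn, a membrane glycoprotein that binds TGF-beta, lies within Coro7 on the other strand and ranged from 44.38 to 47.16 TPM across knockout libraries against 42.88 to 55.87 TPM across wild-type libraries. The knockout libraries were close together and inside the wild-type range, with a log2 difference of -0.08.

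The mitochondrial and enzyme genes of the stretch did not pass the test either. Dnaja3, a mitochondrial J-domain partner of Hsp70, stood at 34.36, 30.27 and 29.80 TPM across knockout libraries against 34.54, 31.70 and 26.27 TPM across wild-type libraries, a log2 difference of 0.03 (95% confidence interval -0.24 to 0.31). Nmral1, which encodes a protein that binds NADPH, ranged from 12.17 to 16.85 TPM across knockout libraries against 15.17 to 16.51 TPM across wild-type libraries (-0.11, the most negative of the 7). Hmox2, the constitutive haem oxygenase, had the narrowest interval. It stood at 74.45, 70.97 and 71.51 TPM across knockout libraries against 76.52, 68.35 and 71.42 TPM across wild-type libraries, a difference of 0.01 (95% confidence interval -0.16 to 0.17). Two-sided exact permutation tests of the 6 values of each neighbour gave p from 0.5 to 1, where 0.1 is the smallest that 3 libraries against 3 allow.

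**Figure D2:**
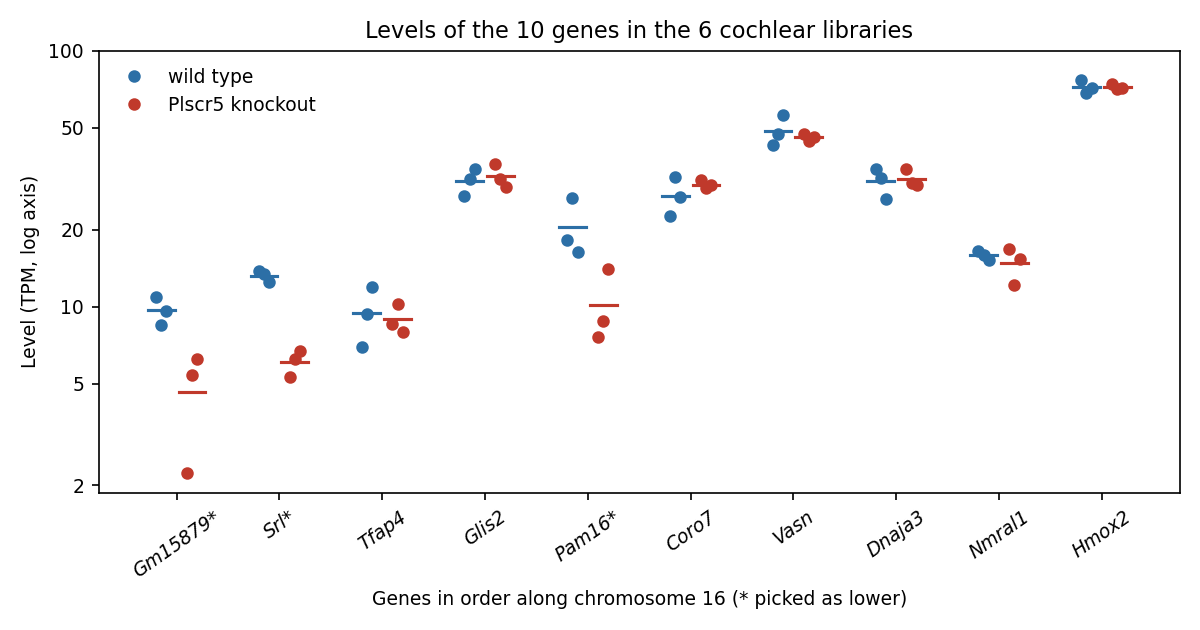
Level in TPM (log axis) of the 10 genes in chromosome order, with 1 point for each of 3 wild-type (blue) and 3 knockout (red) libraries and a line at each group mean. The red and blue points are apart at Gm15879, Srl and Pam16, which were picked as lower, and overlap at the other 7 genes.

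Some neighbours overlap each other in the annotation, which limits how separately they were measured. Hmox2 shares 892 bp of exon, 40.2% of its own, with the other strand of Cdip1, a gene that stood at 84.4 ± 3.2 TPM across knockout libraries against 81.8 ± 4.1 TPM across wild-type libraries (SD, n = 3 each). A stretch of 257 bp of Hmox2 also matched the reverse strand of a transcript of Ppp4r2, on chromosome 6, at 99.6% identity. Dnaja3 shares 160 bp of exon with Vasn on the same strand and 153 bp with Coro7 on the other. Tfap4 and Nmral1 share no exon with another annotated gene.

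By level, corrected for length, the genes fell into steps. Hmox2 was highest in all 6 libraries, at 72.2 ± 2.9 TPM (SD over 6 libraries), and Vasn came next at 47.3 ± 4.5 TPM. Glis2, Dnaja3 and Coro7 followed at 31.6 ± 3.3, 31.2 ± 3.1 and 28.6 ± 3.5 TPM, and their ranges overlapped, so their order is not resolved. Nmral1 (15.3 ± 1.7 TPM) was below all of these in every library. In the wild type, Pam16 at 20.4 TPM, Srl at 13.2 TPM, Gm15879 at 9.67 TPM and Tfap4 at 9.40 TPM were in the lower part of the list, and across the 6 libraries Srl was above Tfap4 in 3.

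A longer stretch was taken by gene order alone. The annotation holds 16 tested genes between the chromosome's start and Srl, and 20 were taken after it, which leaves 34 once Pam16 and Gm15879 are set aside. Of these, 15 had a positive and 19 a negative log2 difference, with a median of -0.01. Neither the limma adjusted p (0.989 at the lowest) nor the unadjusted p was under 0.05 for any of the 34. At 0 of them did all knockout values lie below all wild-type values, against 4.74% of all tested features, and at 0 did all lie above, against 4.60%. The negative differences with the smallest p were those of the zinc finger gene Zfp597 (-0.31), the pseudogene Gm15539 (-0.51) and Smim22 (-0.15). On the positive side they were those of the pseudogene Gm15538 (0.78), 1700037C18Rik (0.33) and Coro7.

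**Figure D3:**
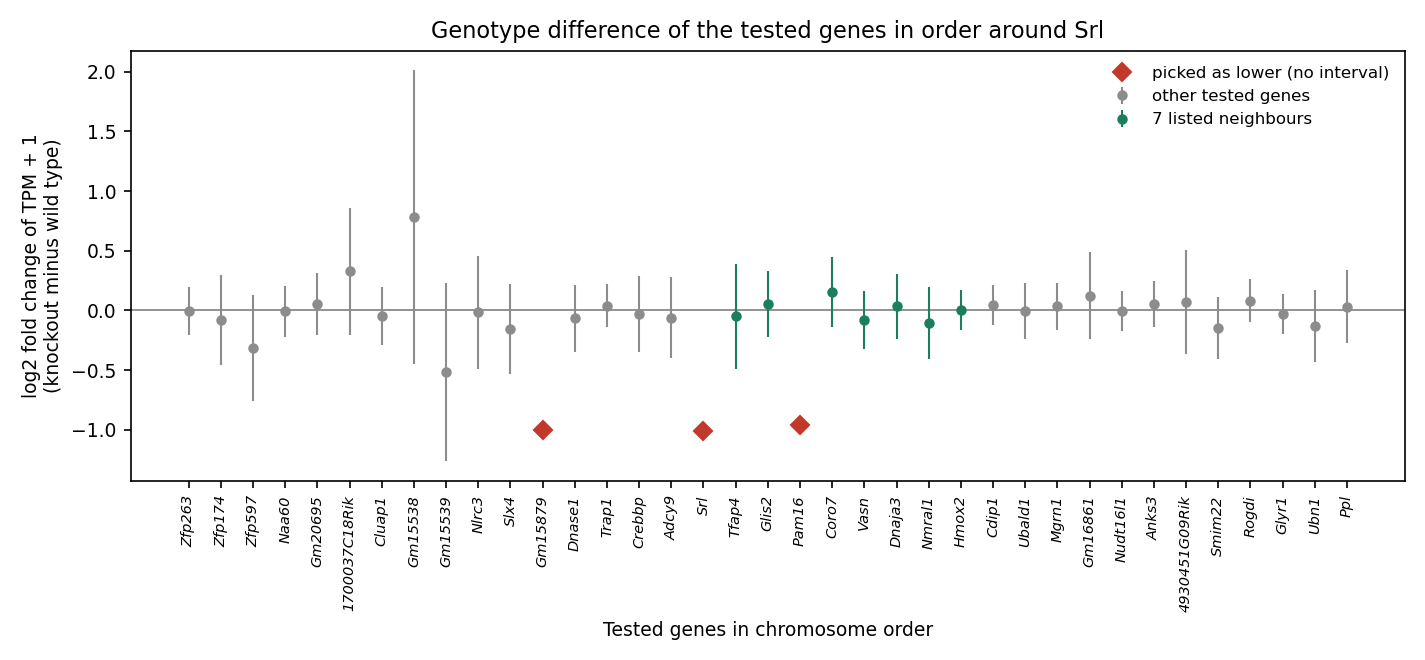
Log2 fold change of TPM + 1, knockout minus wild type, for the tested genes from 16 before to 20 after Srl in chromosome order. Red diamonds are the genes picked as lower, shown without an interval; bars on the green (listed neighbours) and grey (other) points are 95% confidence intervals from limma, and each of them spans 0.

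The promoters of Pam16 and of its neighbour Dnaja3 are shown because both genes serve mitochondrial protein handling, and 1 was picked as lower while the other was not. They run from 250 bases before to 50 bases after the start site in the RefSeq table for GRCm38.p6, a build other than the one in the submitters' notes. Of the 10 genes, 5 (Pam16, Coro7, Vasn, Dnaja3 and Hmox2) matched that table. Capitals mark the core motif of the nuclear respiratory factor NRF1, searched on both strands and 10 bases long. This motif is in 4.63% of 32544 promoters of the same length.
Pam16 promoter, chr16:4624897-4625196, minus strand: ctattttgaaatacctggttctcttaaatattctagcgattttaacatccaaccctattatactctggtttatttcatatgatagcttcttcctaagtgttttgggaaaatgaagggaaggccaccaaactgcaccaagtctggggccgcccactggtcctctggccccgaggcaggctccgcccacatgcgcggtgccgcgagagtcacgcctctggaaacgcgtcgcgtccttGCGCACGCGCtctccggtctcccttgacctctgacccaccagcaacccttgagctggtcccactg
Dnaja3 promoter, chr16:4683820-4684119, plus strand: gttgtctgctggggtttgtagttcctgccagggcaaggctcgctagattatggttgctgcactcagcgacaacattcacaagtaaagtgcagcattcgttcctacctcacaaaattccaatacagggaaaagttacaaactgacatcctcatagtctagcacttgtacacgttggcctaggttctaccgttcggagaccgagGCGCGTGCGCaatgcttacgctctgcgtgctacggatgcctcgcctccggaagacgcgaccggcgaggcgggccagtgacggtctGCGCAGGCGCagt
The Pam16 promoter holds 1 match and the Dnaja3 promoter 2, partly beyond the start site, and those of Coro7, Vasn and Hmox2 hold 0. CAGCTG, the E-box that Tfap4 binds, is in 1 place in the Coro7 promoter, in 1 place in 1 of the 3 listed Hmox2 promoters and in 16.4% of all promoters, and it is in neither printed sequence. A match of letters shows no binding.

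No gene of the calcium store around sarcalumenin passed the test. Of 32 genes for calcium handling in the sarcoplasmic and endoplasmic reticulum, 23 were tested, with 12 higher, 11 lower, 0 past the threshold by limma and a median log2 difference of 0.01. Those with the smallest p were Clcc1, a chloride channel gene of the reticulum (49.1 ± 1.9 TPM across knockout libraries against 38.2 ± 3.6 TPM across wild-type libraries), Fkbp1b (32.3 ± 7.6 and 22.2 ± 5.3 TPM) and Fkbp1a (301.9 ± 12 and 270.5 ± 16 TPM), which encode partners of calcium release channels, and Jph1 (10.9 ± 0.8 and 12.7 ± 0.3 TPM), a junction protein gene. These errors are SD with n = 3 each. Their limma adjusted p was 0.989 in each case, and 3 of the 23 had an unadjusted p under 0.05, beside 4.0% of all tested features.

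Muscle genes were present at uneven levels. Of 38 skeletal muscle genes 17 passed the filter. Among genes named after their values were seen, Acta1, Myh3, Ckm and Myod1 stayed at or below 0.34 TPM in every library, while Eno3 (25.8 ± 3.9 TPM in the wild type), Tnnt1 (17.2 ± 4.3 TPM) and Des (15.8 ± 1.6 TPM) were well above the filter. The summed level of the 38 ran from 196 to 225 TPM across knockout libraries against 199 to 251 TPM across wild-type libraries, with Mybpc1 highest among them at 91.18 to 130.57 TPM. Among the 17 tested, 8 were higher and 9 lower, with 0 past the threshold by limma, 0 with an unadjusted p under 0.05 and a median log2 difference of -0.06. Smallest in p were Eno3 (0.24), Mybpc1 (-0.17), Tnni1 (0.35) and Tnni2 (-0.45). Of 9 heart muscle genes 5 were tested, with 3 higher, 2 lower, 0 past the threshold by limma and a median log2 difference of 0.18. Of these 5, 2 had an unadjusted limma p under 0.05, beside 4.0% of all tested features. Their summed level ran from 22.1 to 24.2 TPM across knockout libraries against 19.2 to 27.45 TPM across wild-type libraries. Tnnt2, cardiac troponin T, was at 3.95 ± 0.63 TPM across knockout libraries against 6.10 ± 0.44 TPM across wild-type libraries (SD, n = 3 each, limma adjusted p = 0.989). Myl3, a myosin light chain gene, had the opposite sign, at 1.75 ± 0.48 TPM across knockout libraries against 0.90 ± 0.26 TPM across wild-type libraries. The groups overlapped at neither gene. All knockout values were below at Tnnt2, a pattern of 4.74% of all tested features, and above at Myl3, a pattern of 4.60%. Of 10 smooth muscle and pericyte genes 8 were tested, with 4 in each direction, a median of -0.01 and a summed level from 154 to 177 TPM in the knockout and from 145 to 166 TPM in the wild type. In bulk tissue, fewer cells of a type and less RNA per cell cannot be told apart.

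No partner of Pam16 in mitochondrial import passed the test. All 24 genes of the presequence translocase, the outer membrane pore and the import motor were tested, with 18 higher, 6 lower, 0 past the threshold by limma and a median log2 difference of 0.05. Their summed level ran from 1516 to 1539 TPM across knockout libraries against 1426 to 1494 TPM across wild-type libraries. All knockout values lay above all wild-type values at 3 of them and below at 1 (4.60% and 4.74% of all tested features). Tomm20, a receptor of the outer membrane, stood at 127 ± 2.6 TPM across knockout libraries against 103 ± 14 TPM across wild-type libraries, and Timm21, a translocase subunit, at 47.9 ± 0.6 and 54.9 ± 3.8 TPM (SD, n = 3 each). Those 2 of the 24 had an unadjusted p under 0.05, beside 4.0% of all tested features, and Tomm40 (0.15) and Timm44 (0.13) were next. Dnajc19 and Hspa9, with which Pam16 acts in the motor, had log2 differences of 0.11 (limma adjusted p = 0.989) and 0.00 (adjusted p = 0.998). Among 13 mitochondrial chaperones and proteases 5 were higher and 8 lower, with a median of 0.00 and 1 unadjusted p under 0.05, that of the protease gene Clpp (0.17).

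**Figure D4:**
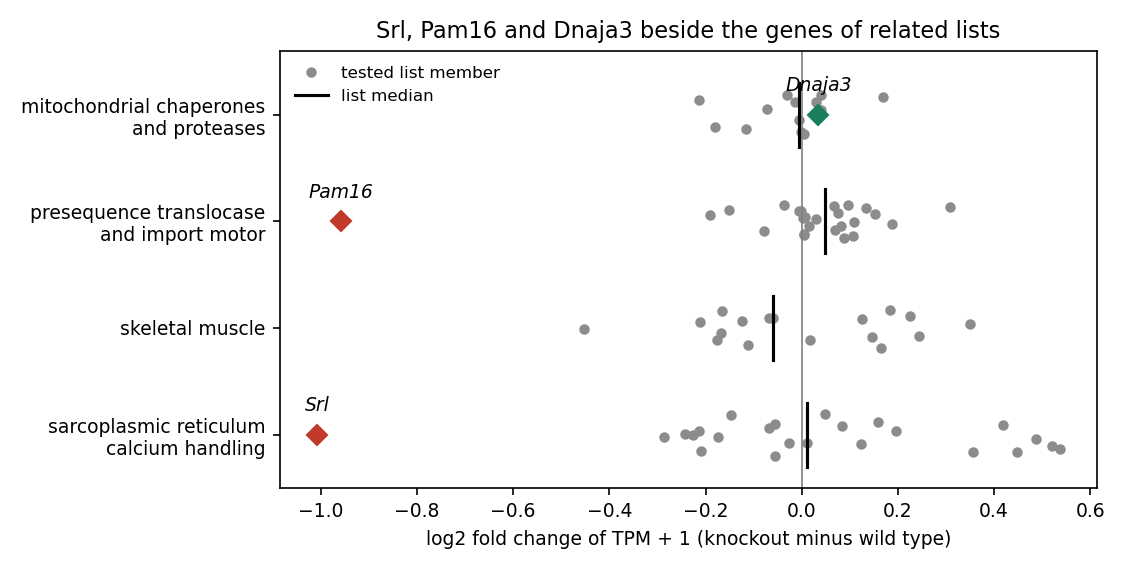
Log2 fold change of TPM + 1, knockout minus wild type, of each tested gene (grey) in 4 related lists, with a black line at the list median and points spread vertically for legibility. Srl and Pam16 (red diamonds, picked as lower) lie left of every listed gene, and Dnaja3 (green diamond) lies near the median of its list.

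Families of the other neighbours gave no call either. All 6 tested coronins had a positive difference, with a median of 0.17 and 0 past the threshold by limma. Of the 6, 1 had an unadjusted p under 0.05, beside 4.0% of all tested features. That was Coro1a (10.2 ± 1.3 TPM across knockout libraries against 6.91 ± 1.18 TPM across wild-type libraries). Coro6 had a difference of 1.01, and its wild-type values were wide (7.59 ± 4.86 TPM). Of 6 genes of haem breakdown and iron storage, 4 were higher and 2 lower, with 0 past the threshold and 1 unadjusted p under 0.05. That was the inducible haem oxygenase Hmox1, which stood at 14.8 ± 0.4 TPM across knockout libraries against 12.2 ± 0.9 TPM across wild-type libraries, with an adjusted p of 0.989 by limma. The 7 tested genes of the GLI and ZIC zinc finger families had a median of 0.01, and the 11 genes around Tfap4 (its zipper relatives and Cdkn1a) one of -0.04, with 0 past the threshold and 0 unadjusted p under 0.05 in both lists.

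Likeness to the picked genes across the 6 libraries was measured as the root-mean-square difference between centred log2(TPM + 1) profiles, over features with a symbol that is not a predicted-gene name. The profiles nearest to that of Srl were mt-Nd4l (0.19), a mitochondrially encoded complex I subunit, Wee2 (0.22), Apoa2 (0.22), Plscr5 (0.22) and Rps13-ps2 (0.23). Nearest to Pam16 were AC158605.1 (0.15), Srl (0.25), Rps13-ps2 (0.25), Rps27rt (0.26) and Slc7a10 (0.28). Nearest to Gm15879 were Il25 (0.21), Chrna1os (0.26), Zfp993 (0.27), Stard6 (0.28) and Srl (0.29). Any feature that is lower in the knockout by a similar amount comes close on this measure, so these lists support nothing further.

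Of the whole data set, Plscr5 was at 4.33 ± 0.66 TPM across knockout libraries against 12.1 ± 2.6 TPM across wild-type libraries (SD, n = 3 each). Plscr5 itself did not pass the threshold (limma adjusted p = 0.290), so genes that did not pass are not shown to be unchanged. All 10 hair cell markers and all 9 markers of supporting cells and their acellular gels were above the filter in these cochleae, with medians of -0.11 and -0.19. Of the hair cell markers 3 were higher and 7 lower, 0 with an unadjusted limma p under 0.05. The supporting cell and gel markers were lower in 9 of 9, with 0 past the threshold, 4 with an unadjusted p under 0.05 and 4 with all knockout values below all wild-type values (4.74% of all features). Their summed level ran from 7567 to 7844 TPM in the knockout and from 8268 to 9785 TPM in the wild type. Its part in the differences of Srl, Pam16 and Gm15879 was not tested. Neuronal (0.79) and Schwann cell (0.80) markers had higher medians in the knockout, with 0 past the threshold by limma in either list. Of 12 neuronal markers 10 were higher and 2 lower, and 1 had an unadjusted limma p under 0.05. Of 10 Schwann cell markers 9 were higher and 1 lower, and 0 had an unadjusted limma p under 0.05, beside 4.0% of all tested features. The summed levels of the neuronal and Schwann cell markers ran from 734 to 1161 and from 495 to 1399 TPM in the wild type, and from 1160 to 1381 and from 1423 to 2194 TPM in the knockout. Wild-type replicate 3 was lowest in both. Without that library the log2 difference of Srl was -1.05, that of Pam16 -1.10 and that of Gm15879 -1.0. Leaving it out did not even the Schwann cell sums. Those of wild-type replicates 1 and 2 (1293 and 1399 TPM) were below every knockout sum, the lowest of which was 1423 TPM. The neuronal sums overlapped narrowly, at 1160.81 TPM in wild-type replicate 2 and 1159.7 TPM in knockout replicate 3. The part of nerve and Schwann cell content in the differences of Srl, Pam16 and Gm15879 was not tested. Medians were 0.15 for osteoblast, -0.47 for red blood cell, 0.04 for macrophage and 0.04 for endothelial markers. The red blood cell sums overlapped, at 443, 1482 and 634 TPM in knockout replicates 1 to 3 against 911 to 1048 TPM in the wild type. Of the 5 tested red blood cell markers 0 had an unadjusted limma p under 0.05.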

How the data were processed

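The deposited values are TPM: per the file headers each table holds gene IDs and 1 library, and in each the values sum to 1000000 to within 1 TPM, with 2 decimals. DESeq2 and the build mm8 appear, with no role, in the submitters' processing notes. Which aligner, quantifier or annotation was used is not stated in the labels or headers, and TPM keeps no read depth. Symbols, gene order, exons and transcripts came from GENCODE M21 (GRCm38), which matched 52083 of 55769 IDs and all 10 genes. Features at 1 TPM or more in 3 or more libraries were tested on log2(TPM + 1), pseudocount 1, with limma 3.58.1 in R 4.3.3 (trend, robust), which was tested on simulated data. Benjamini-Hochberg adjustment ran over all 17097. The design file allowed for counts or normalized values, and the rule for the latter applied. Transcripts were compared with blastn 2.17.0 (identity of at least 90% over at least 150 bp).

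The members, lists and tests were chosen with earlier results of these data known. Genes were named by rule: Plscr5, the 10 genes, the 3 smallest p per direction around Srl, up to 4 smallest p of a described list, and the 5 nearest profiles. Gm9803, Dnase1, Cdip1 and Ppp4r2 were named for shared sequence or overlap. Acta1, Myh3, Ckm, Myod1, Tnnt1, Des, Dnajc19, Hspa9 and the sum of Pam16 and Gm9803 were chosen after values were seen. Alternatives were other filters, pseudocounts, scalings and variance settings, a replicate block and each library left out.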

Additional observations from a re-analysis of the deposited data

How the results depend on the processing

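Over 17 refits the neighbours past the threshold stayed at 0 of 7 (smallest limma adjusted p from 0.801 to 1.00, the former without wild-type replicate 2, where 1 neighbour had an unadjusted p under 0.05). Their median log2 difference ran from -0.04 to 0.02, and that of the genes in order around Srl from -0.02 to 0.02, also with 10 genes on each side, or 16 before and 40 after. The 2 features past the threshold over the whole table became 0 without the variance trend, without a filter and with the replicate block, 1 with median ratio scaling or without haemoglobin and mitochondrially encoded genes, and 0 to 3 when single libraries were left out; the cause was not tested.

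Over the refits Srl ran from -1.11 to -0.93, Pam16 from -1.19 to -0.76 and Gm15879, which has no value among protein-coding genes, from -1.23 to -0.64. Their sign says nothing of stability, since genes whose groups do not overlap cannot change sign when 1 library is left out. Summed with Gm9803, an alternative chosen after seeing the data, Pam16 moved to -0.10. Leaving out single libraries turned the sign of 6 neighbours, all near 0: Tfap4 ran from -0.23 to 0.12, Glis2 from -0.037 to 0.13, Dnaja3 from -0.073 to 0.12, Vasn from -0.16 to 0.022, Nmral1 from -0.20 to 0.019 and Hmox2 from -0.032 to 0.049. Coro7 stayed positive, from 0.03 to 0.28.

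Same-numbered libraries of the 2 genotypes correlated in their deviations at 0.188, -0.055 and 0.242 for replicates 1, 2 and 3. Differently numbered ones ran from -0.269 to 0.126. With 3 libraries per group these values cannot settle whether the numbers pair the libraries. A replicate block cannot move a difference of group means in this balanced design (Srl -1.01 with and without it), so only the count of features past the threshold, given above, bears on it. Depth is unknown, and 3 libraries per group limit all intervals.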
